A study of Rattus norvegicus with 4 samples.

Results

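Immediate early response genes were examined in NR8383 cells, a rat line of lung macrophages, after exposure to NiZnFe2O4. The 10 genes were Fos, Fosl1, Jun, Junb, Egr1, Ier3, Dusp1, Zfp36, Myc and Klf6. Their probes were taken by RefSeq accession, which gave 12 probes in 32 spots per array, of 45579 probes in 58717 spots. All 10 genes had a probe, of 16578 genes with a symbol that did. The cells had been passaged 20 times, had been seeded 48 h ahead in 15% serum and were exposed to 9.25 µg/mL of NiZnFe2O4, whose formula names nickel, zinc and iron oxide, for 4 h. RNA of 4 biological replicates was labelled with Cy3, and each was put on a one-colour Agilent array of its own. The design sets exposed cells against unexposed ones, but arrays of unexposed cells were not analysed here. The values therefore show which of these transcripts gave a signal well above background in exposed cells, and how those signals varied between replicates. A transcript without such a signal is not shown to be absent. None of the values shows what the exposure changed.

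Immediate early genes are transcribed within minutes of a stimulus, without new protein synthesis, from promoters already occupied by factors such as SRF and CREB. MAP kinases relay the stimulus to these factors. Most of the transcripts are short-lived, and several of the proteins feed back on the response: DUSP1 removes phosphate from MAP kinases, and ZFP36 (tristetraprolin) binds AU-rich elements and directs transcripts such as that of TNF to decay. In macrophages these genes are known to respond to microbial products, growth factors, oxidants and phagocytosed particles.

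Promoters of members were searched for elements through which this class is known to be switched on. They are given here for a pair of members whose transcripts were measured (Junb, Klf6) and a pair whose transcripts were not (Egr1, Dusp1). The sequences are the 250 bases before the annotated start of Junb (GRCr8, chr19:40080876-40081125, plus strand), Klf6 (GRCr8, chr17:69458479-69458728, minus strand), Egr1 (GRCr8, chr18:26736828-26737077, plus strand) and Dusp1 (GRCr8, chr10:17184603-17184852, plus strand), from RefSeq, written 5′ to 3′ in the direction of the gene. Capitals mark CArG boxes, the binding element of SRF, and the CREB half-site TGACG, searched on both strands.
Junb: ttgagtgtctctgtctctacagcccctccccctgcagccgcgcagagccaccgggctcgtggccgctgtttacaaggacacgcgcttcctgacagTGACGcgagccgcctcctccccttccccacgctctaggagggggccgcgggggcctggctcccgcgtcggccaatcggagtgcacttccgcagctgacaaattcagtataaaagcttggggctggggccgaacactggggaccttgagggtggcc
Klf6: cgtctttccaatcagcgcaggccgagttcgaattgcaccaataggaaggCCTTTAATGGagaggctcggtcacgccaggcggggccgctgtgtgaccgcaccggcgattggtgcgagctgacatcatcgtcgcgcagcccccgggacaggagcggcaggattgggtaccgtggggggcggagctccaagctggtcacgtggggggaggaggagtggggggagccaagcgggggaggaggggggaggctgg
Egr1: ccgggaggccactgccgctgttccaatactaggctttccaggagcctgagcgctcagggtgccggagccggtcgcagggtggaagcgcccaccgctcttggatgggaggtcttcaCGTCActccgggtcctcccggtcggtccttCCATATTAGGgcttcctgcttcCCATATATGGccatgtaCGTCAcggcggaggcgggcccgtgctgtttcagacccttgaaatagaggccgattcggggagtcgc
Dusp1: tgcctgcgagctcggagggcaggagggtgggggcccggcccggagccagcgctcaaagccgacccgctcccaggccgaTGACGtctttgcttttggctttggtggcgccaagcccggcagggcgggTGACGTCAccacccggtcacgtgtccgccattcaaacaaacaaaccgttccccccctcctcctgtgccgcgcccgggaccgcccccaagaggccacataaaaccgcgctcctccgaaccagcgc

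Of the 10 members 6 had a promoter in the RefSeq table. The Egr1 promoter held 2 CArG boxes, at 105 to 96 and at 83 to 74 bases before the start, and the Klf6 and Zfp36 promoters held 1 each. A CArG box was found in 1.50% of the 33469 promoter windows in the table. The Dusp1 promoter held the full CREB element TGACGTCA, present in 1.59% of all windows, at 124 to 117 bases before the start. This element contains the half-site TGACG on both strands, so it counts for 2 of the 3 half-sites found there. The Egr1 and Fosl1 promoters held 2 half-sites each and the Junb promoter 1, where 18.2% of all windows held any. Junb also had a TATA box (TATAAA) at 49 to 44 bases before its start, a motif in 12.9% of windows. The AP-1 site TGANTCA, through which FOS and JUN proteins bind, was in none of the 6 windows and in 6.34% of all. These matches describe the letters in the windows and are not evidence of binding.

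The immediate early genes divided into 5 that were measured on every array, meaning well above background there, and 5 that were not. Jun, Junb, Myc, Klf6 and Ier3 were well above background on all 4 arrays. Fosl1 passed on 1 array, and Fos, Egr1, Dusp1 and Zfp36 passed on none. To pass on an array, a gene needed a probe with the deposited flag of that name on a share of 0.5 or more of its spots. By this rule 38.7% of the genes with a symbol passed on all 4 arrays, and 51.4% passed on none. With 5 of 10 members on all arrays and 4 of 10 on none, the members lay near that background. The count was also 5 when every probe of a gene had to pass, where the background was 33.2%, and when 3 of 4 arrays were enough, where it was 41.5%. Signals are given below as deposited intensities, and levels as log2 signal minus the 75th percentile of log2 signal over all probes of the same array. That percentile corresponded to 41.7, 32.7, 23.5 and 24.8 intensity units on replicates 1 to 4, so equal signals give a higher level on replicates 3 and 4. Probes differ in how well they bind, so levels of different genes were not ranked. In RNA of a whole culture, fewer cells that express a gene and less of its RNA per cell cannot be told apart.

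**Figure D1:**
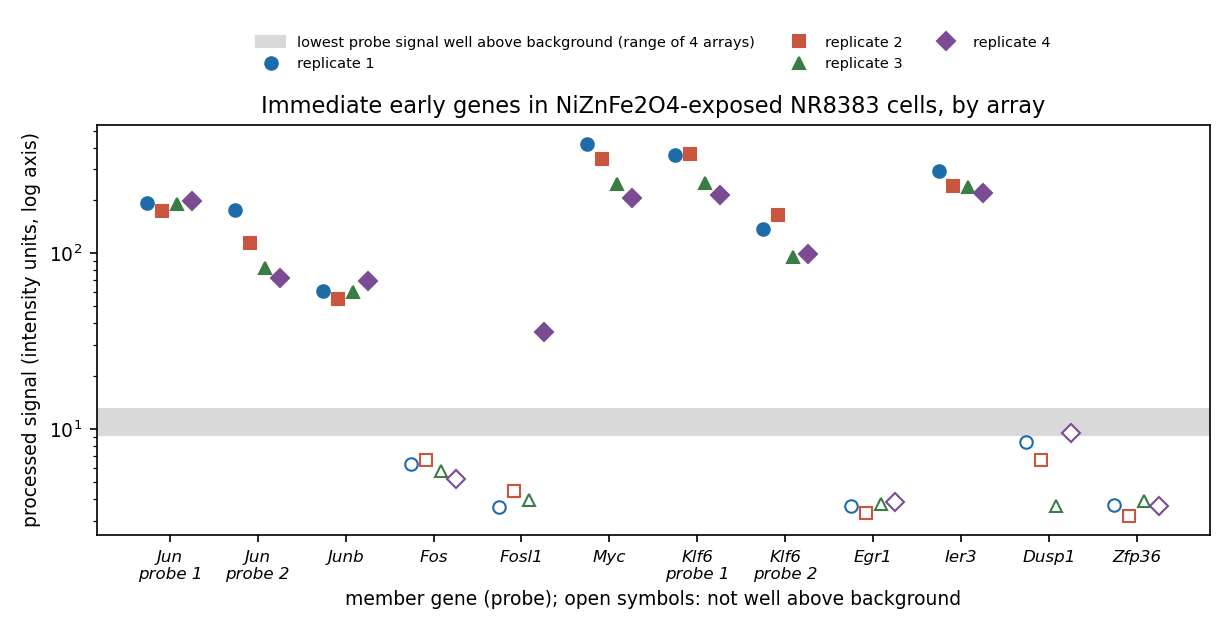
Processed signal (intensity units, log axis) of each member probe on the arrays of replicates 1 to 4, with filled symbols where the probe was well above background and open symbols where it was not. The grey band spans the lowest probe signal well above background on the 4 arrays, from 9.23 to 13.0. Probes of Jun, Junb, Myc, Klf6 and Ier3 lie above the band on every array, and Fosl1 lies above it on replicate 4 alone.

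Array-wide values set the limits of these readings. Between 21812 and 24981 spots per array were well above background, no spot for a rat transcript was saturated, and across the 6418 genes above background, which are not independent replicates, pairs of arrays had a Pearson's r of 0.975 to 0.986. Of 12 macrophage markers 9 passed on all 4 arrays, among them Cd68, Tyrobp and Spi1, while Marco and Adgre1 passed on none and Mrc1 on 3. Among markers of other cells, 1 of 8 passed for lung epithelium (Foxj1), 1 of 4 for neutrophils (Camp) and 2 of 4 for lymphocytes (Lck and Pax5). For fibroblasts and endothelium Dcn, Cdh5, Vwf and Pecam1 passed, 4 of 6. On no array passed Sftpc of lung epithelium, S100a9 of neutrophils, Cd3e of lymphocytes, and the fibroblast collagen genes Col1a1 and Col3a1. Endothelial Vwf, by contrast, stood at 5.05 ± 0.30 and Pax5, a B cell gene, at 2.01 ± 0.26 (SD, n = 4 each), and their part in the members' values was not tested. All 4 arrays lay on 1 slide with 1 scan time.

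Among the AP-1 genes, whose proteins pair through leucine zippers to form the transcription factor AP-1, both Jun genes were measured. Junb, which encodes a JUN protein that often restrains JUN, gave signals of 61.4, 54.7, 60.2 and 69.5 on replicates 1 to 4 from 1 spot per array. These lie within a narrow band. On the log2 scale relative to each array the level was 1.04 ± 0.45 (SD, n = 4), with replicates 3 and 4 high at 1.36 and 1.49 and replicates 1 and 2 low at 0.56 and 0.74. The spread of Junb depended on the scaling: without scaling its SD was 0.14 log2 units, and with spike-in centring 0.23. Around the Junb spot, the median deviation of 102 neighbouring spots was -0.19 log2 units on replicate 2 and 0.03, 0.09 and 0.12 on replicates 1, 3 and 4. With that local deviation subtracted the SD of Junb was 0.38.

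Jun, the founding member of the JUN family, was read by a pair of probes that did not run in parallel. The first probe, in 1 spot per array, gave signals of 194, 173, 191 and 199 on replicates 1 to 4. The second, in 10 spots per array with 1 outlier spot left out on replicate 3, gave mean signals of 176, 115, 82.9 and 71.9. The first probe was thus nearly even over the arrays, while the second was highest on replicate 1 and lowest on replicate 4.

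In unscaled signal, the spots of the second Jun probe separated most of the arrays. They lay between 158 and 200.4 on replicate 1, between 101 and 133 on replicate 2, at or below 90.7 on replicate 3 and between 57.1 and 86.7 on replicate 4. In these signals the ranges of replicates 1 and 2 overlapped with no other array. As levels they did not stay apart. The spots ran from 1.92 to 2.27 on replicate 1, from 1.63 to 2.02 on replicate 2 and from 1.67 to 1.95 on replicate 3. On replicate 4 they ran from 1.20 to 1.81, below those of replicate 1 only. The spots varied by a log2 SD of 0.13 within arrays, pooled over the 4, so that spot noise in the means was at most 0.05 log2 units (standard error). As levels, the first probe stood at 2.66 ± 0.41 and the second at 1.81 ± 0.22 (SD, n = 4 each), with replicate 1 lowest for the first and highest for the second.

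**Figure D2:**
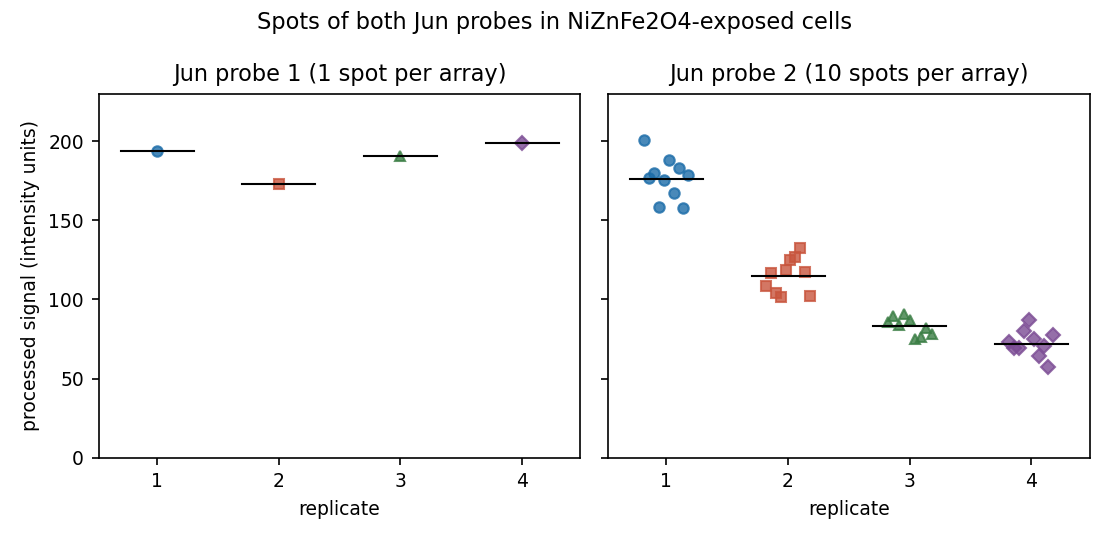
Processed signal (intensity units) of every spot of both Jun probes on the arrays of replicates 1 to 4; horizontal lines are the mean over spots on the log scale. The first probe lies between 173 and 199 on all arrays, while the 10 spots of the second lie at 158 to 200.4 on replicate 1 and at 57.1 to 86.7 on replicate 4.

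The difference between the Jun probes, first minus second, was 0.14, 0.59, 1.20 and 1.47 log2 units on replicates 1 to 4. Its SD of 0.60 compares with a median of 0.23 over the 983 genes that had at least 2 probes above background, and it exceeded 93.8% of them. A constant shift of an array cannot alter this difference. Quantile normalization gave an SD of 0.59, and the local correction left it at 0.60. With the normexp background correction it was 0.40, and leaving out each replicate in turn gave 0.45 to 0.70. Which of the probes follows the amount of Jun transcript was not tested.

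Of the FOS genes neither was measured on all arrays. Fos, the partner of JUN in the classical AP-1 dimer, gave signals of 6.31, 6.64, 5.76 and 5.19 on replicates 1 to 4, each a mean over 2 spots. None of the 8 spot values was well above background, and the lowest probe signals that passed were 9.23, 11.7, 13.0 and 9.79 on these arrays. Fos did carry the weaker deposited flag, positive and significant against background, on all 4 arrays. By that flag 6 of 10 members passed, against 50.9% of all genes.

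Fosl1, which encodes the FOS relative FRA1, gave 3.58, 4.44 and 3.93 on replicates 1 to 3 and 35.4 on replicate 4. Replicate 4 stands far above the other arrays. The Fosl1 spot lies at row 127, column 163 of a grid with 164 columns, at the edge of the array. On replicate 4 the background around this spot was 41, a value reached by 0.123% of the spots of that array, against 26, 25 and 26 on replicates 1, 2 and 3.

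The neighbours of the Fosl1 spot were raised on the same array. Of 54 spots within 5 rows and 5 columns whose probes were not above background on all arrays, 35 (64.8%) were well above background on replicate 4, and their median signal there was 26.1. Over the whole replicate 4 array 2.93% of such spots were. Around the same position 7, 5 and 2 of the 54 passed on replicates 1, 2 and 3, with median signals of 3.62, 3.22 and 3.94. The raised Fosl1 value therefore stood in an area where most dim spots were raised. Without replicate 4 Fosl1 passed on no array.

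**Figure D3:**
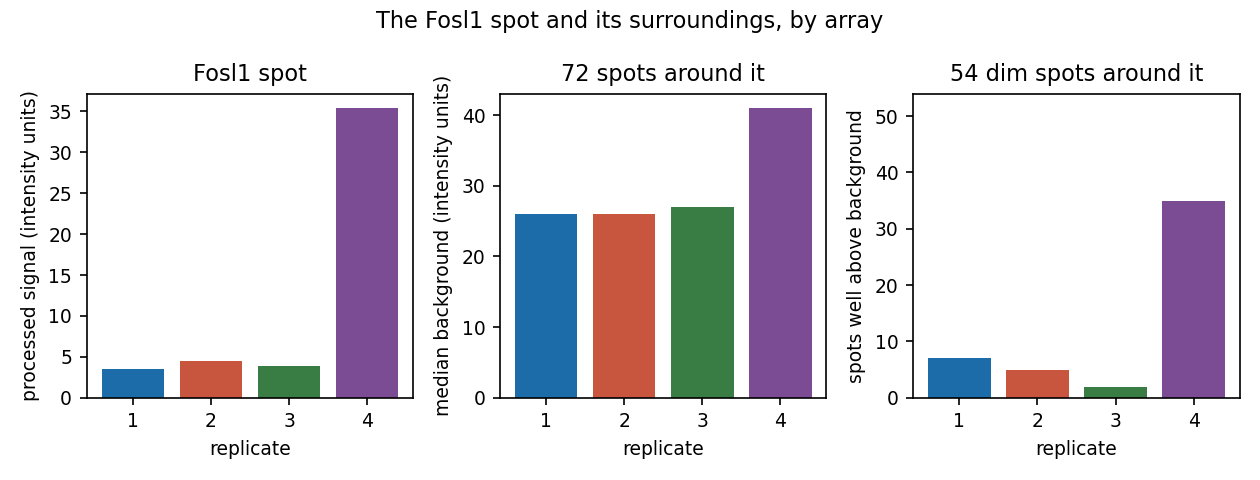
Processed signal of the Fosl1 spot (left), median background signal of the 72 spots within 5 rows and 5 columns (middle), both in intensity units, and number of the 54 dim spots among them that were well above background (right), for replicates 1 to 4. All 3 quantities are highest on replicate 4, where 35 of 54 dim spots passed.

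The other AP-1 genes were measured in 5 of 9 cases. Fosl2, another FOS relative, stood at 1.28 ± 0.46, and Jund, the JUN gene known for steady expression, at 4.65 ± 0.32 (SD, n = 4 each). Atf3, Batf3 and Jdp2, whose proteins pair with JUN, stood at 2.12 ± 0.21, 1.78 ± 0.23 and 3.93 ± 0.18 (SD, n = 4 each). Fosb, Atf2, Atf7 and Batf passed on no array. Both FOS-family genes that are best known as acute response genes, Fos and Fosb, were thus well above background on no array.

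Among the other early transcription factors Myc and Klf6 were measured and Egr1 was not. Myc, a driver of growth and of ribosome production, gave signals of 421, 343, 247 and 208 on replicates 1 to 4, each a mean over 2 spots. Relative to each array its level was 3.30 ± 0.16 (SD, n = 4), and its SD was above that of 26.0% of the genes above background. Replicates 1 to 3 lay close together, at 3.34, 3.39 and 3.39, and replicate 4 was lower, at 3.07. Without replicate 4 the SD fell to 0.03.

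Klf6, a zinc finger factor known to promote inflammatory gene expression in macrophages, was read by a pair of probes in 1 spot each. The first gave 363, 367, 251 and 216 on replicates 1 to 4, and the second 137, 166, 95.2 and 99.1. On both probes replicates 1 and 2 were higher in signal than replicates 3 and 4. The levels were 3.29 ± 0.19 and 2.02 ± 0.25 (SD, n = 4 each). Here the probes ran in parallel: their difference had an SD of 0.15, below the median of 0.23 over genes with such a pair.

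Egr1, a zinc finger factor that is among the fastest genes to respond to SRF and MAP kinase signals, gave 3.65, 3.34, 3.74 and 3.85 on replicates 1 to 4. These values come from 1 probe in 1 spot per array and sit at the floor of the processed signal. Before that floor its background-subtracted signal was -0.67, -0.73, -5.19 and -3.34 on the 4 arrays, below 0 on each, although the raw median of the spot lay above its local background on all 4. On each array the Egr1 signal lay below that of the lowest probe that passed, whose levels were -2.17, -1.48, -0.86 and -1.34. Its relative Egr2 was measured at 0.29 ± 0.36 (SD, n = 4). Of the 9 other early transcription factor genes 2 passed on all arrays, Egr2 and Klf10, the second at 2.25 ± 0.21 (SD, n = 4). Egr3 passed on 2 arrays, Klf4 on 3 and Nr4a1 on 1, while Egr4, Klf2, Nr4a2 and Nr4a3 passed on none.

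Ier3, which protects cells from apoptosis and modulates NF-kB and ERK signals, was measured in 10 spots on each array, of which 1 was left out as an outlier on replicate 4. Its mean signals were 292, 241, 239 and 222 on replicates 1 to 4. The level was 3.05 ± 0.25 (SD, n = 4). As levels, its spots lay between 3.15 and 3.64 on replicate 3, above all spots of replicate 1 (2.67 to 2.95) and of replicate 2 (2.72 to 3.09). The spots of replicate 4 ran from 2.94 to 3.47 and overlapped with those of each other array. The log2 SD between spots was 0.13 within arrays, so the spread between arrays was 1.86 times that between spots of 1 array. Over the 974 probes with at least 8 spots above background, the median SD was 0.08 between spots and 0.17 between arrays.

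Of the other early response genes 7 of 12 passed on all arrays. Ier2 and Ier5, named like Ier3 for their immediate early induction, stood at 4.00 ± 0.08 and 4.38 ± 0.32, and the stress genes Gadd45b and Plk3 at 0.18 ± 0.32 and 3.09 ± 0.34 (SD, n = 4 each). Btg2, Plk2, Ccn1, Ccn2 and Arc passed on no array.

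Neither of the feedback genes was measured. Dusp1, a nuclear phosphatase that switches off p38 and JNK, gave signals of 8.45, 6.68, 3.65 and 9.51 on replicates 1 to 4. Among the 4 members that passed on no array, its signal was highest on replicates 1, 2 and 4, and that of Fos on replicate 3. On replicates 1 and 4 the Dusp1 signal lay just below the lowest passing signals of 9.23 and 9.79. Few probes passed at such signals: the 1st percentile of passing probes was 18.2 and 18.6 on these arrays. Dusp1 was therefore not near the signals at which most probes passed. It carried the weaker flag on 3 of 4 arrays, all except replicate 3. Dusp1, too, is read by 1 probe in 1 spot. Of its relatives Dusp2, Dusp5 and Dusp6 were measured, at 1.24 ± 0.53, 1.26 ± 0.22 and 3.07 ± 0.19 (SD, n = 4 each). DUSP6 is known to act on ERK in the cytoplasm. Dusp8 passed on 1 array and Dusp16 on 2, and Dusp4, Dusp7, Dusp9 and Dusp10 passed on none.

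Zfp36 gave 3.67, 3.18, 3.91 and 3.65 on replicates 1 to 4, all at the floor, and carried the weaker flag on no array. Only 1 probe in 1 spot reads this gene. Its relatives Zfp36l1 and Zfp36l2, which bind the same AU-rich elements, were both measured. Zfp36l1 stood at 0.85 ± 0.15 (SD, n = 4). Zfp36l2 stood at 7.86, 6.88, 8.52 and 6.72 on replicates 1 to 4, a mean of 7.49 ± 0.85 (SD, n = 4), with replicates 1 and 3 high and replicates 2 and 4 low. These are levels of the brightest of its 3 probes. Whether its other probes or another scaling give this pattern was not tested.

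The decay machinery that these proteins recruit was measured in part. Cnot1, the scaffold of the CCR4-NOT deadenylase, stood at 3.96 ± 0.54 and its catalytic subunit gene Cnot7 at 0.94 ± 0.13 (SD, n = 4 each), while Dcp1a, Dcp2 and Parn passed on no array. In the list of the family and decay genes 7 of 10 passed. That count includes Zfp36l1, Zfp36l2 and genes outside the decay machinery. Of 8 transcripts known as ZFP36 targets 3 passed, Tnf, Cxcl2 and Ccl3. Csf2, Il6, Il10, Ptgs2 and Cxcl1 passed on no array.

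Most of the listed factors and kinases upstream of the immediate early genes were measured. Of 14 MAP kinase cascade genes 11 passed on all arrays by any of their probes, and 3, Map2k6, Map2k7 and Mapk8, on none. By the same rule 38.7% of all genes with a symbol passed on all 4 arrays. The kinase genes Araf, Map2k1 and Map2k2 stood at 2.20 ± 0.46, 4.60 ± 0.29 and 4.96 ± 0.39 (SD, n = 4 each). Of 8 genes of SRF, its partners and the CREB family 6 passed on all arrays, and Elk3 and Crebbp on 2. Srf stood at 3.26 ± 0.20, its cofactor genes Elk1 and Elk4 at 0.35 ± 0.44 and 1.35 ± 0.34, and Creb1 at 0.10 ± 0.42 (SD, n = 4 each). That the shares of these lists differ from that of the members, or from that of all genes, was not tested.

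MYC works as a dimer with MAX, and MAX also pairs with repressors of the MXD group. Of 9 genes of this network 5 passed on all arrays. Max stood at 0.22 ± 0.47, the repressor genes Mxd3, Mxi1 and Mnt at -0.21 ± 0.23, -0.10 ± 0.27 and 4.69 ± 0.20, and Mlx at 2.22 ± 0.28 (SD, n = 4 each). Mxd1 passed on 2 arrays, and Mga, Mycn and Mycl passed on none, so Myc was the 1 MYC paralogue measured. Over all 9 related lists 49 of 88 genes passed on every array (55.7%), 31 passed on none and 8 lay in between. Among all genes with a symbol 38.7% passed on every array and 51.4% on none.

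**Figure D4:**
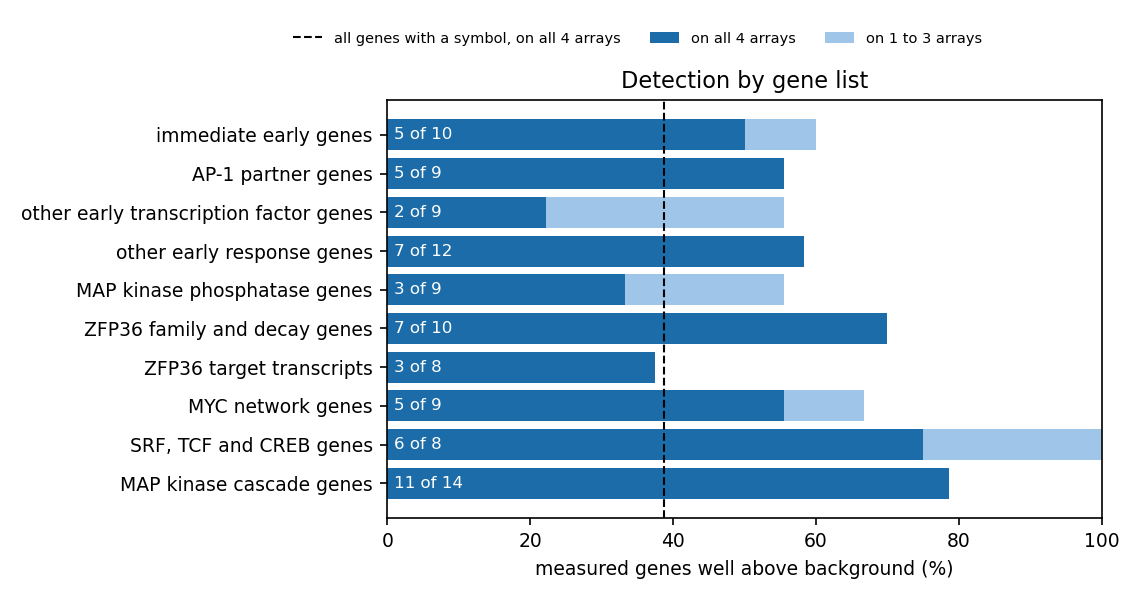
Share of the measured genes of each list that were well above background (%), on all 4 arrays (dark bars, with the count) and on 1 to 3 arrays (light bars). The dashed line marks the 38.7% of all genes with a symbol that passed on all 4 arrays. The immediate early genes (5 of 10) lie above the line and the other early transcription factor genes (2 of 9) below it, and the longest dark bar is that of the MAP kinase cascade genes (11 of 14).

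The spread of the measured members between replicates depended on how the arrays were scaled. Scaled to the 75th percentile, the median SD of the 5 members was 0.25 log2 units, against a median of 0.23 and 10th and 90th percentiles of 0.10 and 0.43 over the 6418 genes above background. On this scale the SDs of Myc and Klf6 lay above those of 26.0% and 38.3% of genes, and the SDs of Junb and of Jun, by its first probe, above those of 91.8% and 88.3%. In the unscaled signals, with the same Jun probe, the order was turned. Myc and Klf6 lay above 65.2% and 50.2% of genes, and Junb and Jun above 3.23% and 0.732%. With spike-in centring it was turned as well, with Myc and Klf6 above 78.5% and 73.8% of genes, and Junb and Jun above 1.08% and 3.52%. The place of Jun also depended on the probe: by its second probe the SD on the 75th percentile scale was 0.22, near the median.

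The fold between the highest and the lowest array followed the same split. On the 75th percentile scale it was 1.90 for Junb, 1.74 for Jun by its first probe, 1.45 for Ier3, 1.29 for Klf6 and 1.25 for Myc. In the unscaled signals it was 1.27 for Junb, 1.15 for Jun by its first probe, 1.32 for Ier3, 1.70 for Klf6 and 2.03 for Myc. The second Jun probe differed: its fold was 1.46 on the 75th percentile scale. Its unscaled mean signals ran from 176 on replicate 1 to 71.9 on replicate 4. These values give no order of variability for the members that holds under every scaling.

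**Figure D5:**
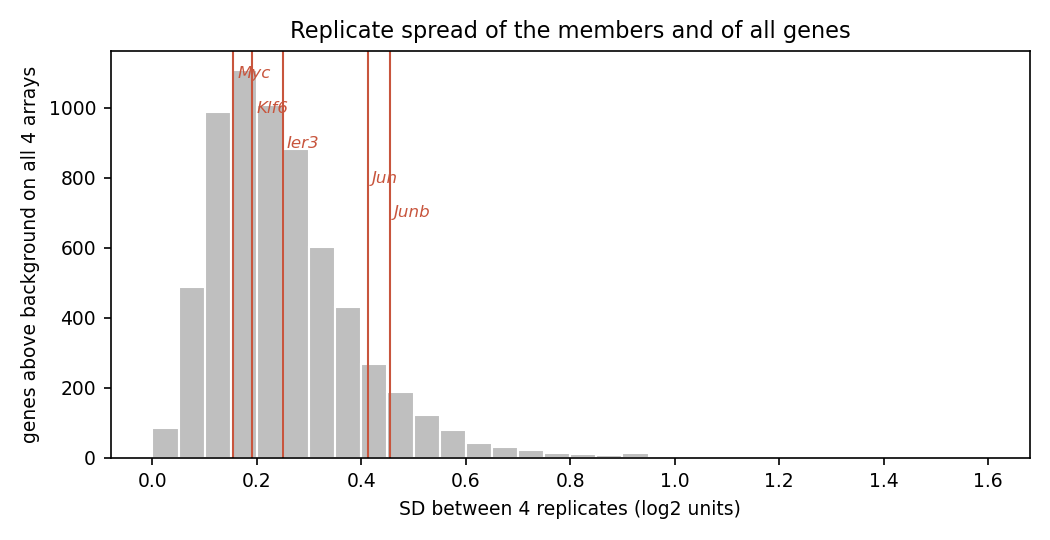
Number of genes above background by the SD of their log2 level, scaled to the 75th percentile of each array, between the 4 replicates (bars, 0.05 log2 units wide), with the SDs of the 5 measured members as vertical lines. Myc, Klf6 and Ier3 fall in the bulk of the distribution, and Jun (first probe) and Junb at 0.41 and 0.45 fall near the 90th percentile of 0.43; without scaling, Myc and Klf6 had larger SDs than Jun and Junb.

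The members did not move as 1 block between arrays. Relative to the median deviation of all genes above background, and with Jun read by its first probe, all 5 lay higher on replicate 3, with a median of 0.28 log2 units. On replicate 1 only Myc lay higher, and the median was -0.18. On replicate 2 Myc and Klf6 lay higher, and on replicate 4 Jun, Junb and Ier3 did. These counts were the same with quantile normalization and with the normexp correction.

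With Jun read by its second probe, the one in 10 spots, the counts were 2, 3, 4 and 2 of 5 on replicates 1 to 4. That probe deviated by 0.32, 0.01, -0.01 and -0.34 log2 units from the median of all genes, so it was high on replicate 1 and low on replicate 4. Junb and Ier3 lay low on replicates 1 and 2 and high on replicates 3 and 4, and Jun did so by its first probe but not by its second. Myc was lower on replicate 4 (-0.29) than on the other arrays (0.08 to 0.10). These values describe 5 genes on 4 arrays of 1 group, and no test was made.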

How the data were processed

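RNA of 4 biological replicates was measured on 1 array each. The authors read the scans with Agilent Feature Extraction, version 11.0.1.1 in the submitters' processing notes. Intensities were deposited: a processed signal per spot, background-subtracted and detrended within the array and set to a floor where low, and raw signals of spot and background. They are not scaled between arrays. Flags coded 0 or 1 were also deposited. Of these other columns, the well-above-background, positive-and-significant, saturation and outlier flags were used. Control spots (4259 per array) and outlier spots (491 to 828) were not used. Each probe's spots were averaged as log2 of the deposited intensity, and the 75th percentile over probes was subtracted. A gene takes the level of its brightest probe.

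Accessions were matched to RefSeq transcripts of GRCr8, which gave 21103 probes 1 symbol and 24476 none. The array design names rn4, so no gene coordinates are given; the promoters are RefSeq's own. Members and lists were chosen with earlier results of these data known. All members are named with every probe; of each related list, all genes of a count of 5 or fewer and otherwise the first 4, of which 1 is not reported here. With 1 group, no test between groups was made, and 4 arrays limit the precision. The series calls the replicates biological; nothing further says that they came from separate cultures. The summaries were tested on simulated data. Alternatives were the weaker flag, 3 of 4 arrays, all probes, other scalings, the normexp background correction of limma 3.58.1 in R 4.3.3 (offset 50), a correction by neighbours within 10 rows and columns, and leaving out each replicate. Python 3.11.15, numpy 2.4.6 and pandas 2.3.3 were used. The 5-row window around the Fosl1 spot was chosen after its values were seen.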

Additional observations from a re-analysis of the deposited data

Results flagged for a closer look

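Of 56 values for members and related genes tested for 1 array apart from the others, 2 exceeded Dixon's 95% critical value for 4 samples, where chance gives about 1 in 20. Over all 6418 genes above background 316 (4.92%) exceeded it. Myc had a ratio of 0.834, because replicate 4 stood at 3.07 and the other arrays between 3.34 and 3.39. Mapkapk2, the p38-activated kinase known to phosphorylate ZFP36, had a ratio of 0.847, since replicate 1 read 5.21 where replicates 2 to 4 read 5.57 to 5.63; it is named here because of that ratio.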

How the results depend on the processing

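The number of members well above background was 5 with 3 of 4 arrays (background 41.5%), with all probes of a gene required (33.2%) and without any replicate. It was 6 with the weaker flag (50.9%), Fos being added. The number of related genes was 49, and 50, 37 and 59 under those settings (3 of 4 arrays, all probes, weaker flag), and 49 to 50 without a replicate. The share over all genes with a symbol moved as well, from 38.7% to 41.5%, 33.2% and 50.9% in the same order. Levels have an arbitrary zero and shift with every scaling. Without scaling the median of all genes moved by 0.48, 0.13, -0.34 and -0.27 log2 units on replicates 1 to 4, and with centring on 7 spike-in probes by 0.39, 0.54, -0.19 and -0.73. SDs moved with it, here with Jun read by its first probe. Without scaling Jun had 0.09, Junb 0.14, Klf6 0.39 and Myc 0.46. With spike-in centring Ier3 had 0.43, Klf6 0.68 and Myc 0.71, while Jun had 0.29. Members, with Jun read by the same probe, were higher or lower than their own mean on different arrays under these 2 settings. All 5 were above it on replicate 1 without scaling and on replicate 2 with spike-in centring. With the normexp correction Jun had an SD of 0.27 and Junb 0.22. With the mean of both probes Jun had 0.14, and by its second probe, an alternative chosen after seeing the data, 0.22. Keeping the dim members gave a median SD of 0.42 in place of 0.25, over values at or near the floor. Slide as a block was not run, since all arrays share 1 slide. No paired analysis was possible because the labels hold 1 group.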
